A study of Mus musculus with 29 samples.

Results

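The genes examined here were 9 protein-coding genes that are widely used as markers or regulators of the B-cell and fat-cell lineages, in which the transcription factor EBF1 acts, out of 21938 protein-coding genes on chromosomes 1 to 19, X and Y. They were chosen by name: Cd79a, Cd79b, Vpreb1, Igll1, Blk and Pax5 for B cells, Cebpa and Pparg for fat cells, and Foxo1, which serves in both. For each gene, peaks were collected over a window that spanned the gene body and 50 kb on either side (mouse build mm10), and the peaks of EBF1-HA were set beside those of all other constructs.

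The study mapped transcription factor binding by ChIP-seq in NIH-3T3, an established mouse embryonic fibroblast line that is neither a B cell nor a fat cell. Each factor carried an HA tag and was expressed from a doxycycline-inducible transgene in a dedicated stable line, induced overnight with 500 ng/ml doxycycline before precipitation with an anti-HA antibody, so that every group shared the line, the induction and the antibody. The 28 peak lists belonged to 24 constructs: wild-type factors with the HA tag, the FOXA1 mutants FOXA1_RR-HA and FOXA1_SW-HA, and OCT4-HA co-expressed with SOX2-YPET. Duplicate lists existed for SOX2-HA, OCT4-HA, FOXA1-HA and BHLHB8-HA, and every other construct, EBF1-HA included, had 1 list. EBF1-HA therefore had no replicate, none of its counts carries an error between libraries, and no comparison below was given a test. The lists held 304922 peaks, from 52 to 61991 a list, and EBF1-HA had 7669. They give the position of each peak and no height or read number, so depth was unknown. They do not tell whether a gene was transcribed.

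EBF1 is a zinc-coordinating DNA-binding protein that is required for the commitment of progenitors to the B lineage, where it activates genes of the pre-B-cell receptor together with E2A and PAX5. It is also present in fat tissue, where EBF proteins promote the differentiation of preadipocytes. It binds as a dimer to a palindromic sequence, TCCCNNGGGA, in which N is any base. The sequence reads the same on both strands, so that 1 scan covers both.

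EBF1-HA had a peak in the window of 6 of the 9 genes: Cd79b, Vpreb1, Igll1, Blk, Foxo1 and Pparg. Cd79a, Pax5 and Cebpa had none. In all of the protein-coding genes, 38.8% of windows held an EBF1-HA peak, which over 9 genes corresponds to 3.49. This number takes no account of window width, whose median was 105 kb for the 9 genes and 117 kb for all. Of the genes with a peak, Pparg (229 kb), Foxo1 (185 kb) and Blk (144 kb) had wider windows than that of all. So did Pax5 (286 kb), which had no peak. The 6 windows rested on 5 peaks in all, because Vpreb1 and Igll1 are neighbours and share 1 peak. Of the 6 B-cell genes 4 had a peak, and of the other 3 genes 2 did.

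Foxo1 alone had an EBF1-HA peak at its start (midpoint within 1 kb), against 5.09% of all protein-coding genes. The other 4 peaks lay between 25.3 and 74.4 kb from the start of the gene whose window held them, outside its body, and 2 of them lay at the start of a different gene. The sequences of the 5 peaks are given here so that their content can be compared. Capitals mark the EBF sequence TCCCNNGGGA (Foxo1), its inner part CCCNNGGG (the peaks in the windows of Cd79b and of Vpreb1 and Igll1) and the AP-1 sequence TGACTCA (Blk), and stretches inside exons of protein-coding genes were left out.

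Foxo1 peak, upstream of the gene, chr3:52268080-52268335, plus strand: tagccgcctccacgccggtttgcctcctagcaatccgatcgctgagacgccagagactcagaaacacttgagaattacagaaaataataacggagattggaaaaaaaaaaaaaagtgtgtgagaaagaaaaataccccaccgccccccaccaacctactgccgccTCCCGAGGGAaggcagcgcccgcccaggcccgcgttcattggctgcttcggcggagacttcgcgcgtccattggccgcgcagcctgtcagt
Cd79b window, peak upstream of Smarcd2, chr11:106272973-106273271, plus strand: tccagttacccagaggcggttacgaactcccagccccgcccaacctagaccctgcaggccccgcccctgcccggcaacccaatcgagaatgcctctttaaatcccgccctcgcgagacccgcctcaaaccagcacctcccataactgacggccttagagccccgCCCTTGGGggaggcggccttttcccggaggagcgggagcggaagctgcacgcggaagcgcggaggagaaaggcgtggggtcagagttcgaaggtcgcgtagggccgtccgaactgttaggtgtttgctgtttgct
Vpreb1 and Igll1 window, peak upstream of Ppm1f, chr16:16896053-16896324, plus strand: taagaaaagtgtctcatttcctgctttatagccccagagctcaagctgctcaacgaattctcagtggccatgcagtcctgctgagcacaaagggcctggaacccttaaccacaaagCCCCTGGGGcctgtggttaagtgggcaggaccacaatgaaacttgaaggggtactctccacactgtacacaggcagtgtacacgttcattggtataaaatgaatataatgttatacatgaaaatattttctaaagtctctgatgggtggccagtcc
Blk window, peak in Gm5463, chr14:63342469-63342734, plus strand: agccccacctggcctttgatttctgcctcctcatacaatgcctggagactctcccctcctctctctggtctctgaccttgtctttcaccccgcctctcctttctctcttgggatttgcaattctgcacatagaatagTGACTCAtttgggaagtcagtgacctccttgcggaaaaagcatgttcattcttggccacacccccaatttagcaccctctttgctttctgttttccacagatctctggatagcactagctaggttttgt
Pparg window, peak upstream of the gene, chr6:115316816-115317079, plus strand: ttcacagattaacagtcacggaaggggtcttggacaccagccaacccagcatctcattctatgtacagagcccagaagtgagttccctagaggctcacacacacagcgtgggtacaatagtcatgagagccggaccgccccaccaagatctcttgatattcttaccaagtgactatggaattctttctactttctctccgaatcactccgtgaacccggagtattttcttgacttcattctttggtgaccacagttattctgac

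Of the 5 peaks, 1 held the full EBF sequence, the one at Foxo1, compared with 1209 of all 7669 EBF1-HA peaks (15.8%). The inner part was present in 3 of the 5 and in 47.3% of all EBF1-HA peaks. The AP-1 sequence, bound by FOS and JUN proteins and counted on both strands, was present in 1 of the 5 and in 30% of all. The Pparg peak held none of these. For scale, 0.904% of 32851 RefSeq promoters (250 bases before to 50 after a start) held the EBF sequence and 5.2% held the AP-1 sequence. A match is a description of the letters and does not show where the protein sat.

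**Figure D1:**
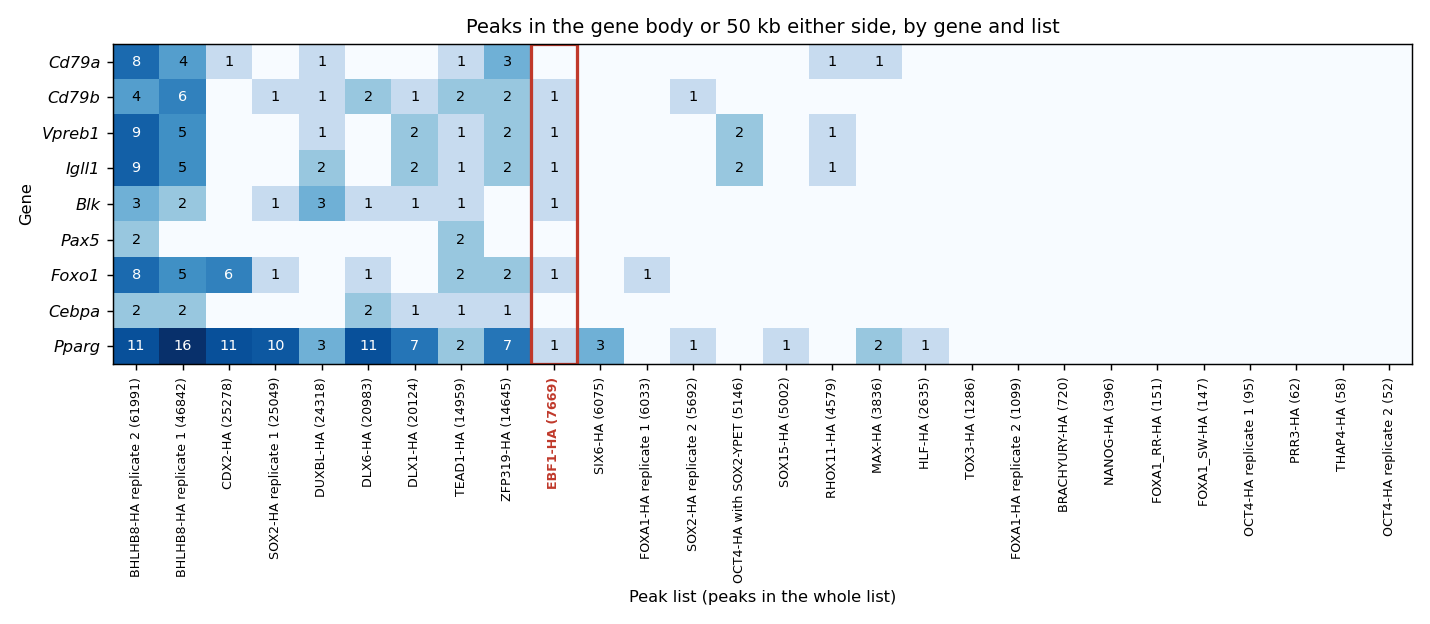
Number of peaks in the window of each of the 9 genes (rows) in each of the 28 lists (columns, ordered by the number of peaks in the whole list, in brackets); empty cells are 0 and shading follows the number. The EBF1-HA column, outlined, holds 1 peak for 6 genes and none for Cd79a, Pax5 and Cebpa, and the 10 columns on the right have no peak at any of the genes.

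Cd79a and Cd79b encode the paired signalling chains of the B-cell receptor. The window of Cd79a (chromosome 7, 24847381 to 24952197) had no EBF1-HA peak. The nearest lay 95.7 kb downstream of the gene start. At this distance Cd79a ranked among the 45.9% of genes with an EBF1-HA peak as near or nearer. The window was not empty in other lists. It held 8 peaks in BHLHB8-HA replicate 2, 4 in BHLHB8-HA replicate 1, 3 in ZFP319-HA, and 1 each in CDX2-HA, DUXBL-HA, TEAD1-HA, RHOX11-HA and MAX-HA. Of these 20 peaks 14 were upstream, 6 downstream and 0 in the gene, and the nearest to the start, a BHLHB8-HA peak 5.99 kb downstream, lay over a coding exon of Arhgef1.

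Cd79b had 1 EBF1-HA peak, of 412 bp, on chromosome 11 from 106272860 to 106273271. It lay 41.7 kb downstream of the Cd79b start, but 93 bp upstream of the start of Smarcd2, a subunit of the SWI/SNF chromatin remodelling complex, and reached into an untranslated exon of it. No peak of another construct overlapped it. A TEAD1-HA peak ended 35 bp away, at 106272401 to 106272824. BHLHB8-HA had 6 and 4 peaks in the Cd79b window in its replicates, DLX6-HA, TEAD1-HA and ZFP319-HA had 2 each, and DLX1-HA, DUXBL-HA and both lists of SOX2-HA had 1 each. The nearest to the Cd79b start were a BHLHB8-HA and a DLX6-HA peak, 1.8 and 1.83 kb upstream.

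Vpreb1 and Igll1 encode the VpreB and lambda5 proteins of the surrogate light chain, which pairs with the heavy chain in the pre-B-cell receptor. Both genes are on the minus strand of chromosome 16, and their windows overlap, so that they are not independent observations. Their shared EBF1-HA peak, of 272 bp at 16896053 to 16896324, was 25.3 kb upstream of Vpreb1 and 32.2 kb upstream of Igll1. It lay 281 bp upstream of Ppm1f, which encodes a protein phosphatase. A peak of BHLHB8-HA replicate 1, 16896013 to 16896646, covered it whole. The peak of BHLHB8-HA replicate 2 there, 16896384 to 16897451, did not reach it. The EBF1-HA peak held 2 overlapping copies of the inner palindrome.

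The Vpreb1 window held 24 peaks of 8 constructs and that of Igll1 25, also of 8. In both, BHLHB8-HA replicate 2 had 9 peaks and replicate 1 had 5, and DLX1-HA, ZFP319-HA and OCT4-HA with SOX2-YPET had 2 each. BHLHB8-HA, DLX1-HA and RHOX11-HA had peaks within 1 kb of the annotated Vpreb1 start, in a merged site from 16870126 to 16871430. This site also covered an untranslated exon of the neighbouring gene Top3b, and it overlapped Vpreb1 only over a noncoding exon. No list had a peak over the RefSeq promoter of Vpreb1, which starts within the GENCODE gene, or over that of Igll1.

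Blk encodes a SRC-family kinase that acts downstream of the B-cell receptor. Its EBF1-HA peak, of 266 bp on chromosome 14 at 63342469 to 63342734, was 74.4 kb downstream of the Blk start, beyond the end of the gene, and lay in an intron of the long noncoding RNA gene Gm5463. The nearest protein-coding start was that of Gata4, a zinc-finger factor of heart and gut, 70909 bp away. No other construct overlapped this peak, and the nearest, of TEAD1-HA, was 2914 bp from it. Within Blk itself, an intron at 63409293 to 63409738 carried peaks of BHLHB8-HA replicate 1, DLX6-HA and SOX2-HA replicate 1, 7.52 to 7.66 kb from the start. In the whole window DUXBL-HA had 3 peaks, the BHLHB8-HA replicates had 2 and 3, and DLX1-HA, DLX6-HA, SOX2-HA replicate 1 and TEAD1-HA had 1 each.

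Pax5, the factor that maintains B-cell identity, was the emptiest of the 9 windows. Only 4 peaks fell in its 286 kb (1.4 per 100 kb, over all lists), 2 of TEAD1-HA and 2 of BHLHB8-HA replicate 2, all within the gene body. The nearest to the start was a TEAD1-HA peak 6.4 kb into the gene, at 44703683 to 44704499 on chromosome 4. BHLHB8-HA replicate 1 had none. The nearest EBF1-HA peak was 738 kb away, and 85.2% of genes had one as near or nearer.

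Foxo1 encodes a forkhead factor that is needed for early B-cell development and that also acts in fat cells. Its EBF1-HA peak, of 359 bp on chromosome 3 at 52268080 to 52268438, had its midpoint 77 bp upstream of the Foxo1 start and reached into its 5′ untranslated part, and over an exon of the antisense gene Gm20402. The EBF sequence lay within the peak, centred 0.086 kb upstream of the start. Only 0.852% of protein-coding genes had an EBF1-HA peak as near or nearer. No other construct had a peak over it. TEAD1-HA had a peak 349 bp away, over a coding exon (52268788 to 52269294), and a second one 1.54 kb into the gene. At 52269606 to 52270389, in an intron, peaks of BHLHB8-HA, DLX6-HA and TEAD1-HA met. CDX2-HA had 6 peaks in the Foxo1 window, BHLHB8-HA 5 and 8 in its replicates, ZFP319-HA and TEAD1-HA 2 each, and DLX6-HA, SOX2-HA replicate 1 and FOXA1-HA replicate 1 had 1 each. FOXA1-HA replicate 1 had its peak there 102 kb from the start, past the end of the gene, and FOXA1-HA replicate 2 had none.

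Cebpa encodes C/EBP alpha, which with PPAR gamma drives the terminal differentiation of fat cells. It had no EBF1-HA peak in its window, and the nearest, at 35036427 to 35036686 on chromosome 7, was 82.7 kb upstream, a distance within which 42.8% of genes had one. Among the other lists, BHLHB8-HA had 2 peaks in each replicate, DLX6-HA had 2, and DLX1-HA, TEAD1-HA and ZFP319-HA had 1 each. The TEAD1-HA peak, of 1330 bp at 35119249 to 35120578, covered the start and coding part of Cebpa. It was the only peak in the gene body, with 4 upstream and 4 downstream.

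Pparg encodes PPAR gamma, the nuclear receptor that governs fat-cell formation. Its window was the most densely occupied of the 9, with 87 peaks over 15 lists and 13 constructs (37.9 per 100 kb, against 1.4 to 24.2 for the other genes). EBF1-HA contributed 1 of them, of 264 bp at 115316816 to 115317079 on chromosome 6, between genes and 44 kb upstream of the Pparg start. Peaks of DLX6-HA, SIX6-HA and SOX2-HA replicate 1 overlapped it, and SOX2-HA replicate 2 had none there. BHLHB8-HA had 16 and 11 peaks in its replicates, CDX2-HA and DLX6-HA 11 each, SOX2-HA replicate 1 10, and DLX1-HA and ZFP319-HA 7 each. DUXBL-HA and SIX6-HA had 3 each, MAX-HA and TEAD1-HA 2 each, and HLF-HA, SOX15-HA and SOX2-HA replicate 2 had 1 each.

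Peaks that touched were merged into sites, of which the Pparg window had 44, and 14 of these held more than 1 construct. The most shared, 115349093 to 115350273, upstream of the gene, held 6: BHLHB8-HA, CDX2-HA, DLX6-HA, SOX15-HA, SOX2-HA and ZFP319-HA. Sites of 5 constructs lay upstream at 115323025 to 115323392, in an intron at 115389900 to 115390668, and downstream at 115492760 to 115494123. None of these held EBF1-HA. The start of Pparg itself carried TEAD1-HA alone (115360757 to 115361325). Pparg has further, internal starts, and a DLX1-HA peak (115421748 to 115421921) overlapped the RefSeq promoter of 1 of them, 115421816 to 115422115.

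**Figure D2:**
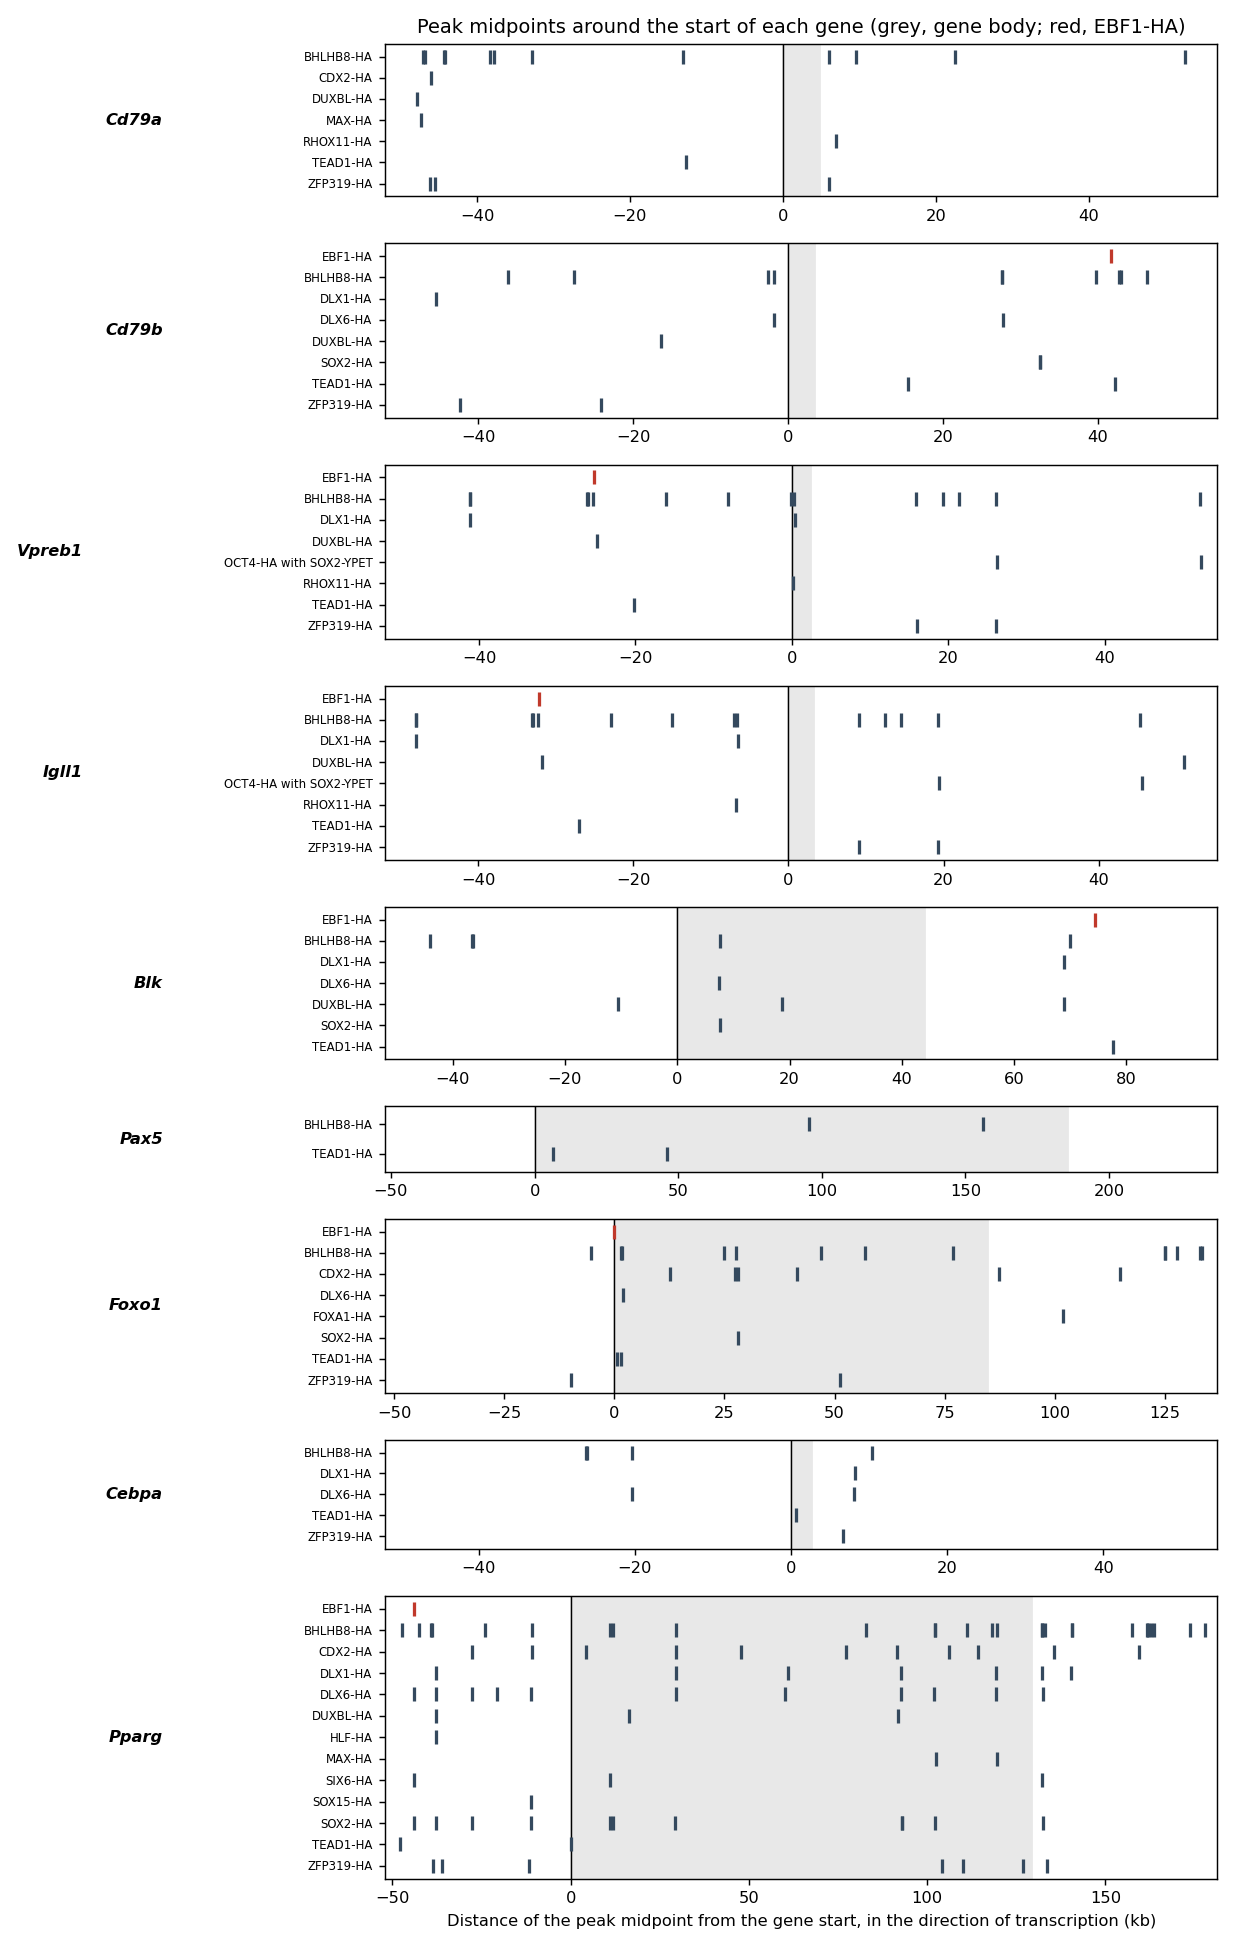
Midpoints of the peaks of each construct (rows within a panel) around the start of each gene, in kb in the direction of transcription; grey marks the gene body, red ticks EBF1-HA, and duplicate lists share a row. The red tick sits at the start only at Foxo1, and the Cd79a, Pax5 and Cebpa panels have none.

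In the 8 regions that the 9 windows form when merged (1265 kb, 0.0478% of the known genome), EBF1-HA had 3.95 peaks per Mb, and 2.9 in the whole genome. The ratio was 1.36, with a 95% exact binomial interval of 0.443 to 3.18 that covers counting error only and includes 1. By this ratio EBF1-HA ranked 8 of the 28 lists, and ZFP319-HA had the highest at 2.43 (1.42 to 3.89). The windows surround genes, whereas the whole genome also holds stretches far from them. No density over the windows of all genes is given here. Over the 9 genes the median distance from the start to the nearest EBF1-HA peak was 44 kb, compared with 114 kb over all protein-coding genes. Vpreb1 and Igll1 take their distance from the same peak, so that peak enters the median of the 9 more than once.

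**Figure D3:**
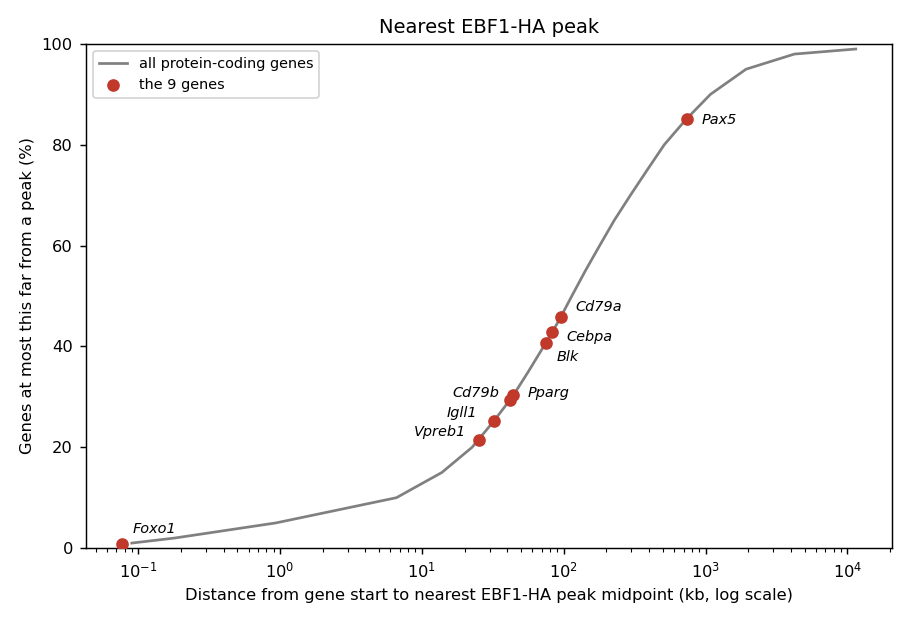
Distance from the gene start to the midpoint of the nearest EBF1-HA peak (kb, log scale) against the percent of protein-coding genes at most that far from one; the grey line is all 21938 genes and red points are the 9 genes. Foxo1 stands at the left end, at 0.077 kb, Pax5 at 738 kb, and the other 7 between 25.3 and 95.7 kb.

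The count of 6 depended on the size of the window. In the gene body alone, EBF1-HA had a peak at 1 of the 9 genes, Foxo1, against 12.4% of all genes, and the density ratio was 0.749. With flanks of 20 kb the count was still 1 of 9, against 26.5%, and the density ratio was 0.44. With flanks of 100 kb it was 8 of 9, against 51.2%, Cd79a and Cebpa being added and Pax5 still without a peak, and the density ratio was 2.17. The number of peaks then rose from 5 to 13, of which 4 were in the Pparg window. Of the 5 peaks in the 50 kb windows 2, at Foxo1 and in the Cd79b window, were at least 300 bp wide. The median width of all EBF1-HA peaks was 307 bp.

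**Figure D4:**
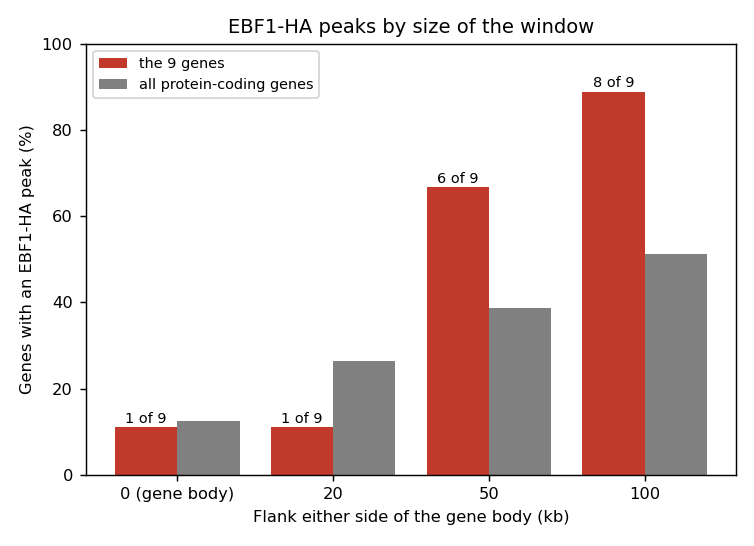
Percent of genes with an EBF1-HA peak in the gene body plus a flank of 0, 20, 50 or 100 kb, for the 9 genes (red) and all protein-coding genes (grey). The red bar is below the grey one at 0 and 20 kb (1 of 9 genes) and above it at 50 kb (6 of 9) and 100 kb (8 of 9).

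Few other constructs were found over the EBF1-HA peaks in these windows. Of the 5, 2 overlapped a peak of any other construct, by at least 1 bp, whereas 6505 of all EBF1-HA peaks did (84.8%). None of the 5 was at a site of 10 or more constructs, where 6.58% of all EBF1-HA peaks were found. Of the 5, 3 had their midpoint within 1 kb of a protein-coding start (those of Foxo1, Smarcd2 and Ppm1f), compared with 13.3% of all EBF1-HA peaks. With 5 peaks from 1 library these shares are descriptions only.

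The EBF sequence itself was not scarce in the windows. The merged windows held 33 copies, or 2.61 per 100 kb, and the genome held 45006, or 1.7 per 100 kb. Of the 33, only the copy at Foxo1 lay in an EBF1-HA peak, and in the genome 2.8% of copies did. Pax5 had the most, 11, followed by Foxo1 with 6, Blk with 5, Cd79a with 4, Cebpa with 3 and Pparg with 2, and Cd79b had 1, as did Vpreb1 and Igll1, which share theirs. Apart from the Foxo1 copy, none lay in a peak of any list. The copy nearest to the start of each gene without an EBF1-HA peak is shown beside the occupied one, with the palindrome in capitals.

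Foxo1, in an EBF1-HA peak, chr3:52268235-52268264, plus strand: tactgccgccTCCCGAGGGAaggcagcgcc
Cd79a, no peak, chr7:24911505-24911534, plus strand: ctgcctgaagTCCCCAGGGAtggatgtgca
Pax5, no peak, chr4:44705330-44705359, plus strand: agctgataggTCCCTTGGGAgctggtgatg
Cebpa, no peak, chr7:35153664-35153693, plus strand: tctgcgcaccTCCCAGGGGActtgggtttg

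The copy nearest to the Cd79a start was 14.1 kb downstream, in an intron of Arhgef1. That of Pax5 was 5.14 kb into the gene, in an intron, and that of Cebpa 34.4 kb downstream, between genes.

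Other constructs covered the same 9 genes to widely different extents. The largest list, BHLHB8-HA replicate 2, had a peak at all 9 genes (84.4% of all protein-coding genes) and replicate 1 at 8 (77.2%), missing Pax5. In the merged windows these replicates had 47 and 40 peaks, of which 17 and 18 overlapped the other list. TEAD1-HA also reached all 9 genes (68.8%), with 12 peaks in the merged windows, and 3 of the 9 had its peak within 1 kb of the start (Foxo1, Cebpa and Pparg), against 28.8% of all genes. ZFP319-HA had a peak at 7 (59.4%), DLX1-HA at 6 (60.5%), DUXBL-HA at 6 (64.2%) and DLX6-HA at 5 (53.1%).

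SOX2-HA replicate 1 had a peak at 4 of the genes (57.3%) and replicate 2 at 2 (25.6%), and both peaks of replicate 2 overlapped peaks of replicate 1. CDX2-HA had a peak at 3 (56.4%), RHOX11-HA at 3 (34.3%) and MAX-HA at 2 (23%). HLF-HA (15.6%) and SOX15-HA (22%) had a peak at 1, Pparg in both cases. The 10 lists without a peak at any of the genes were those of BRACHYURY-HA, FOXA1-HA replicate 2, FOXA1_RR-HA, FOXA1_SW-HA, NANOG-HA, OCT4-HA replicates 1 and 2, PRR3-HA, THAP4-HA and TOX3-HA. These lists had 52 to 1286 peaks, and their peaks were in the windows of 0.351% to 10.1% of all genes.

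Of the lists most like EBF1-HA in size, within 1.5 times its number of peaks, none reached more than 2 of the genes. SIX6-HA (6075 peaks) had peaks at Pparg only, 1 of 9 against 27.8% of all genes, and FOXA1-HA replicate 1 (6033 peaks) at Foxo1 only, against 27.5%. SOX2-HA replicate 2 (5692 peaks) had a peak at Cd79b and Pparg, and OCT4-HA with SOX2-YPET (5146 peaks) at Vpreb1 and Igll1 (15.9%). Their density ratios in the merged windows were 1.03, 0.347, 0.735 and 0.813, next to 1.36 for EBF1-HA. The intervals of all 4 overlapped that of EBF1-HA, and depth was unknown for each. EBF1-HA exceeded the number given by its share of all genes by 2.51 genes, and TEAD1-HA, the list with the greatest excess, by 2.81. The EBF1-HA excess counts Vpreb1 and Igll1 as 2 genes although they share 1 peak, and neither excess accounts for window width.

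**Figure D5:**
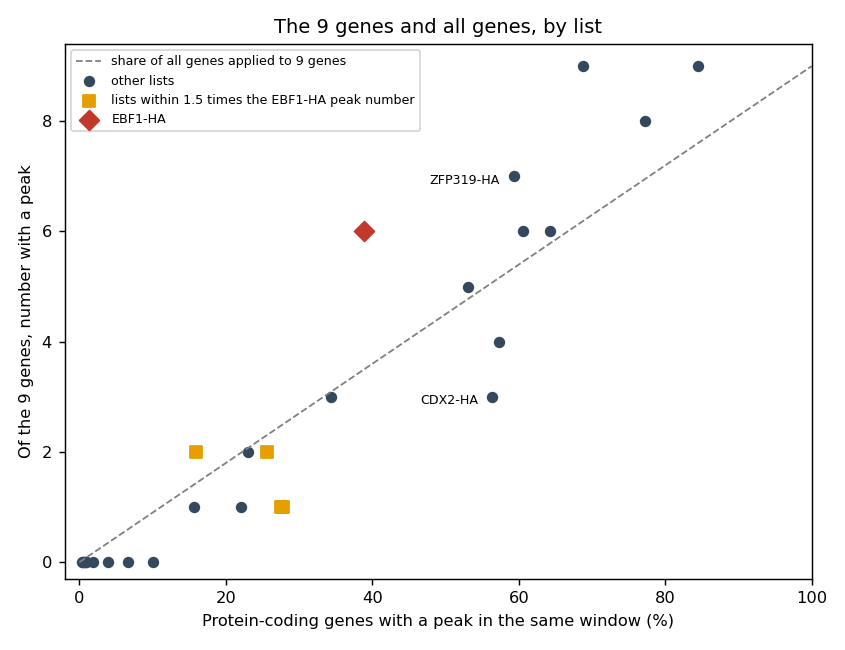
Each point is 1 list: the percent of all protein-coding genes with a peak in the gene body or 50 kb either side (horizontal) and how many of the 9 genes have one (vertical); the dashed line applies the percent to 9 genes. EBF1-HA (red) is at 38.8% and 6 genes, above the line, and the 4 lists closest to it in size (orange, 2 of them nearly overlaid) are at 1 or 2 genes.

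Further genes of the same lineages gave a wider view. Of 20 other B-lineage genes 9 (45%) had an EBF1-HA peak in the window, and of 20 other fat-cell genes 11 (55%), against the 38.8% of all protein-coding genes. Those B-lineage genes with the nearest peaks were Tcf3, which encodes the E proteins that cooperate with EBF1 (2.26 kb upstream of the start), Vpreb3, a relative of Vpreb1 (12.5 kb upstream), Spi1, which encodes the myeloid and B-cell factor PU.1 (13.4 kb upstream), and Irf4, which encodes a factor of plasma-cell differentiation (26.4 kb upstream, the nearest of 3 peaks). The peak at Cr2, a complement receptor, was 45.3 kb downstream of the start. Ebf1 itself had 2 EBF1-HA peaks, the nearest 277 kb from its start, inside the gene. No EBF1-HA peak lay in the windows of Rag1, Rag2, Dntt, Il7r, Blnk, Vpreb2, Cd22, Cd24a, Pou2af1, Lef1 and Bcl11a.

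Among the fat-cell genes, Cebpb, an early factor of fat-cell differentiation, had 4 EBF1-HA peaks in its window, the nearest 2.27 kb upstream. Lipe, which encodes hormone-sensitive lipase, had 5, the nearest 8.12 kb downstream of the start. The peak 10.1 kb upstream of Plin1, which encodes the coat protein of the lipid droplet, held 2 EBF sequences and no peak of another construct touched it. Peaks lay 11.7 kb upstream of Ucp1, the uncoupling protein of brown fat, and 12.6 kb downstream of the start of Pnpla2, which encodes adipose triglyceride lipase. Farther away were those of the lipid-synthesis genes Srebf1 (32.5 kb downstream) and Fasn (50.6 kb downstream), of Cidec, a lipid-droplet protein (45.3 kb upstream), and of Slc2a4, which encodes the insulin-responsive glucose transporter (46.4 kb downstream). The windows of Adipoq, Fabp4, Lpl, Cd36, Cebpd, Klf15, Ppargc1a, Lep and Retn held no EBF1-HA peak. None of the genes named here from these lists had an EBF1-HA peak midpoint within 1 kb of its start. For Vpreb3, Spi1, Cr2, Plin1, Pnpla2, Fasn, Slc2a4 and Cidec, the peak given lay nearer to the start of another protein-coding gene.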

How the data were processed

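Peak lists of anti-HA ChIP-seq in NIH-3T3 cells were used as deposited. Per the submitters' processing notes and the study's methods, the authors aligned reads with STAR 2.5.3a to mm10, kept unique alignments, removed duplicates with Picard, called peaks for each sample with MACS2 2.1.1.20160309 and dropped those that overlapped input peaks or blacklisted regions; deepTools 2.4.2 is also listed. The deposited files hold chromosome, start and end only, so depth is unknown and differences in depth were not removed. The input chromatin was not analysed here.

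Gene models were GENCODE vM21, and sequences and promoters RefSeq GRCm38.p6, the build of the files. Of the 9 genes, 7 matched the promoter table, with 9 promoters. Printed coordinates count from 1. A peak was counted in a window when at least 1 bp lay in it, and distances run from the gene start to the peak midpoint. Duplicate lists were merged where constructs were counted. Intervals are 95% exact binomial intervals and cover counting error only. Python 3.11.15, NumPy 2.4.6, SciPy 1.17.1 and Matplotlib 3.10.9 were used. Counting of overlaps and of sequences was checked on simulated lists and sequences.

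The 9 genes and the lineage lists were chosen with earlier results of these data known. The text names all 9 genes, Ebf1, the 15 lineage genes with the nearest EBF1-HA peaks and the lineage genes without one in the window. It also names the protein-coding gene with the start nearest to each EBF1-HA peak in the windows of the 9. Other genes appear as the annotation of a peak. Some items that this rule would name are not reported here.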

Additional observations from a re-analysis of the deposited data

How the results depend on the processing

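Several counts moved with the window, the width of the peaks or the overlap asked for. The number of genes with an EBF1-HA peak, 6 with flanks of 50 kb, was 1 in the gene body alone, 1 with flanks of 20 kb and 2 with peaks of at least 300 bp. It was 8 with flanks of 100 kb and 5 with 50 kb either side of the start. With peak midpoints, and without sites of 10 or more constructs, it was 6. Over all protein-coding genes the share was 12.4% in the gene body and 26.5%, 38.8% and 51.2% with flanks of 20, 50 and 100 kb. No such share is given for peak midpoints, for leaving out shared sites or for windows around the start. The number of EBF1-HA peaks, 5, was 1, 1 and 13 in the gene body and with flanks of 20 and 100 kb, and 2 with peaks of at least 300 bp. The density ratio, 1.36, was 0.749 in the gene body, 0.44 with flanks of 20 kb and 2.17 with flanks of 100 kb. Of these, 0.44 alone lay outside 0.443 to 3.18, the counting interval of the ratio with flanks of 50 kb. The values in the gene body and with flanks of 20 kb rest on 1 peak each, and no intervals of their own are given. Of the 40 lineage genes 20 (50%) had a peak, against 38.8% of all protein-coding genes. In the gene body alone 5 of the 40 had one, against 12.4% of all. For the lists closest in size, peaks of at least 300 bp left 0 genes for FOXA1-HA replicate 1, 0 for SIX6-HA and 1 for SOX2-HA replicate 2, and flanks of 20 kb left 1 for SOX2-HA replicate 2 and 1 for OCT4-HA with SOX2-YPET. No share of all protein-coding genes is given for peaks of at least 300 bp, or for these lists with flanks of 20 kb. Those counts therefore have no background beside them. Without 1 replicate at a time, the genes reached ranged from 0 to 1 for FOXA1-HA and from 2 to 4 for SOX2-HA. EBF1-HA peaks with the EBF sequence numbered 1, and those with its inner part numbered 3, the Foxo1 peak with the full sequence among them. Those that overlapped another construct numbered 2, and 1 with a reciprocal overlap of 50%, 0 with peaks of at least 300 bp, and 1 to 2 without 1 replicate at a time. In all, 20 of 46 alternatives moved a count by over 1.5 times or the ratio out of the interval found with flanks of 50 kb. The other 26 gave a value within these limits, though not always the same value. The cause was not tested. No paired analysis was possible because no result comes from a test and EBF1-HA has 1 list. Unknown depth limits every comparison between lists, and no depth was at hand to thin the lists to.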
